A study of Rattus norvegicus with 3 samples.

Results

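The proteasome is the particle that degrades proteins tagged with ubiquitin. Its subunits were taken as a list of 32 genes, which are the alpha and beta rings of the 20S core, the ATPase and non-ATPase subunits of the 19S regulatory particle, and the cap gene Psme4. A gene was measured where a probe set carried its symbol and no other, and the brightest such probe set by the mean of the 3 arrays stood for the gene. This gave 31 of the 32 subunits, among 14506 genes measured in that way. The remaining subunit, Psma3, shared its probe set with a second symbol and was not analysed here. All 31 passed the limit on low values, which kept 10154 genes with a mean of at least 5.72 (log2), called the compared genes from here on.

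The RNA came from the soleus, a mostly slow-twitch muscle that bears weight in the hind limb. The rats were 7 weeks old, and the label gives their strain as Brown. In group DN the muscle was denervated, group TS was suspended by the tail, which takes the load off the hind limbs, and group Ct had neither. Rats of all 3 groups, Ct included, were irradiated over 2 weeks to a total absorbed dose of 50 mSv, so an unirradiated muscle is not part of any comparison. Each group's 6 rats gave 1 RNA pool, measured on 1 Affymetrix Rat Gene 1.0 ST array. There is therefore no spread between samples and no test, and each difference describes 1 pool against another. Values are taken as log2 values of the array's RMA summary, in which a difference of 1 is a 2-fold difference; the base was inferred from their range. Genes were counted past a limit of 0.32 on that scale, which is 25% more on the linear scale, and where stated at 1.5-fold. In whole-muscle RNA, a change in the RNA of each fibre and a change in the share of other cells cannot be told apart.

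As background, the 20S core is a barrel of stacked rings in which the outer alpha subunits form a gate and the inner beta subunits hold the active sites. The 19S particle sits on its end, where receptor subunits bind ubiquitin chains, a deubiquitinase removes them and a ring of ATPases unfolds the protein and threads it into the core. In wasting muscle this system is known to break down myofibrillar proteins that ubiquitin ligases have tagged, and in mammalian cells the transcription factor Nfe2l1 is known to raise subunit genes together when proteasome activity is short.

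In the denervated muscle most subunit transcripts stood slightly above Ct. Of the 31 subunits, 25 were higher in DN by any amount, against 32.8% of the compared genes. That share is lowered by the 42.9% of the compared genes that were equal in DN and Ct and count as neither. Of the subunits, 3 were equal. Past the limit, 7 were higher and none was lower, where 9.71% of the compared genes were higher and 9.57% lower. The median subunit difference was 0.11, against 0.00 over the compared genes. No subunit was 1.5-fold higher or lower, where 501 of the 10154 compared genes were higher and 562 lower. The 7 were Psma1, Psma2 and Psma4 of the alpha ring, the ATPase Psmc4, and Psmd2, Psmd11 and Psmd14 of the rest of the 19S particle. Psma2 and Psmd11 lay just past the limit, and with the arrays centred on a common median both were just under it, which left 5.

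In the suspended muscle the subunits stood further above Ct, and nearly all of them did. Of the 31 subunits, 29 were higher in TS by any amount, against 52.6% of the compared genes. Once the arrays were centred on the median of the compared genes, 24 were. The median difference over the compared genes was then -0.12, so most of those genes were lower. They include the 24.7% that were equal in TS and Ct as deposited, all of which centring puts below 0. No subunit was equal. The 5 subunits that were above 0 as deposited and below it when centred were Psma6, Psmb1, Psmb2, Psmc6 and Psmd13. Past the limit 16 of 31 were higher and none was lower, where 17.4% of the compared genes were higher and 6.62% lower. The median subunit difference was 0.35, against 0.02 over the compared genes. Only Psmd8 and Psmd11, both subunits of the 19S lid, reached 1.5-fold, as did 5.89% of the compared genes.

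Set directly against each other, DN lay below TS for most subunits. Of the 31, 24 were lower in DN by any amount, against 50.3% of the compared genes, and 3 were higher. Past the limit, 5 were lower and none was higher, where 16.8% of the compared genes were lower and 7.1% higher, so the share of 5 in 31 is close to that of all genes. Psmd8 alone reached 1.5-fold in this direction, as did 5.93% of the compared genes. The median was -0.14, against -0.0028 over the compared genes. With each array centred on its median over the compared genes it was -0.0105, against 0.12 over the compared genes. That 0.12 means most of the compared genes were then higher in DN, while 14 of the 31 subunits were. Those genes include the 26.3% that were equal in DN and TS as deposited, all of which centring puts above 0. Of the subunits, 4 were equal. The subunit median lay below that of the compared genes, an order that centring cannot change because it shifts all genes of an array alike. These 3 comparisons share arrays, so their values stand side by side and are not independent of one another.

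**Figure D1:**
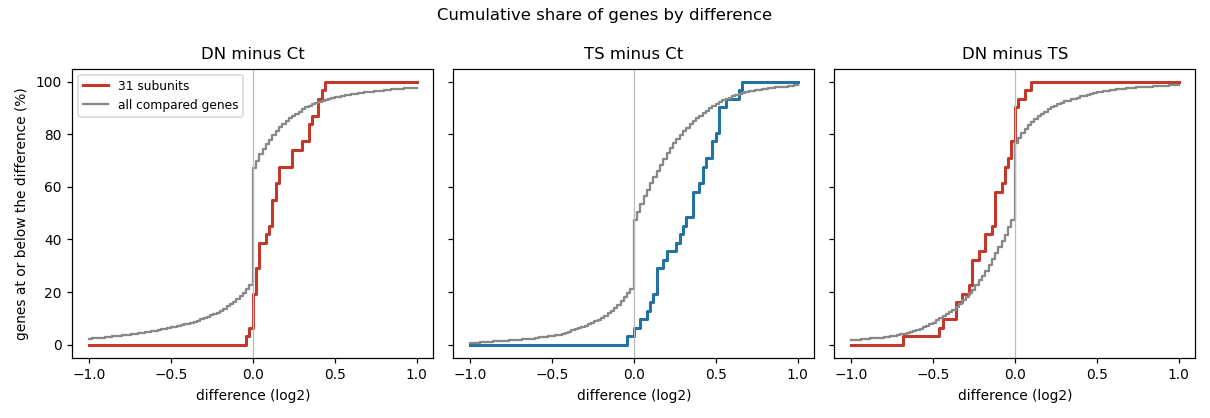
Cumulative share of genes (vertical axis, percent) by difference of array values (horizontal axis, log2) for the 31 subunits (coloured) and all compared genes (grey), with a panel each for DN against Ct, TS against Ct and DN against TS. In TS minus Ct the subunit curve lies to the right of the grey one, with medians of 0.35 and 0.02; the step at 0 in the grey curves comes from genes with equal values on both arrays.

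The summary method can give exactly the same value on different arrays. Subunits were equal in DN and Ct for 3 of 31 members, against 42.9% of the compared genes, in TS and Ct for 0 of 31, against 24.7%, and in DN and TS for 4 of 31, against 26.3%. Equal values are thus no evidence of equal transcript levels. Genes with equal values also count as neither higher nor lower. This lowers the shares by any amount, in all 3 comparisons, more in the compared genes than in the subunits. For genes of like brightness, 2965 compared genes had a mean within the range of the subunits' means. Among those, a set chosen after the data were seen, the share past the limit was 13.7% for higher in DN against Ct, 18.6% for higher in TS against Ct, and 19% for lower in DN against TS.

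The TS array as a whole lay above the others. Over the compared genes the DN median was 0.01 above that of Ct, and the TS median 0.13 above it. With each array centred on that median, 10.2% of the compared genes were higher and 10.6% lower past the limit in TS against Ct, while 9 of 31 subunits were higher and none was lower. With a trend on mean expression removed, the split over all compared genes was 13.3% higher and 8.19% lower, and with quantile normalization it was 13.3% higher and 8.01% lower; 16 of 31 subunits were higher under both. For DN minus TS, centring gave 10.6% of genes higher and 10.4% lower, trend removal 8.19% and 13%, and quantile normalization 8.16% and 13.2%.

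**Figure D2:**
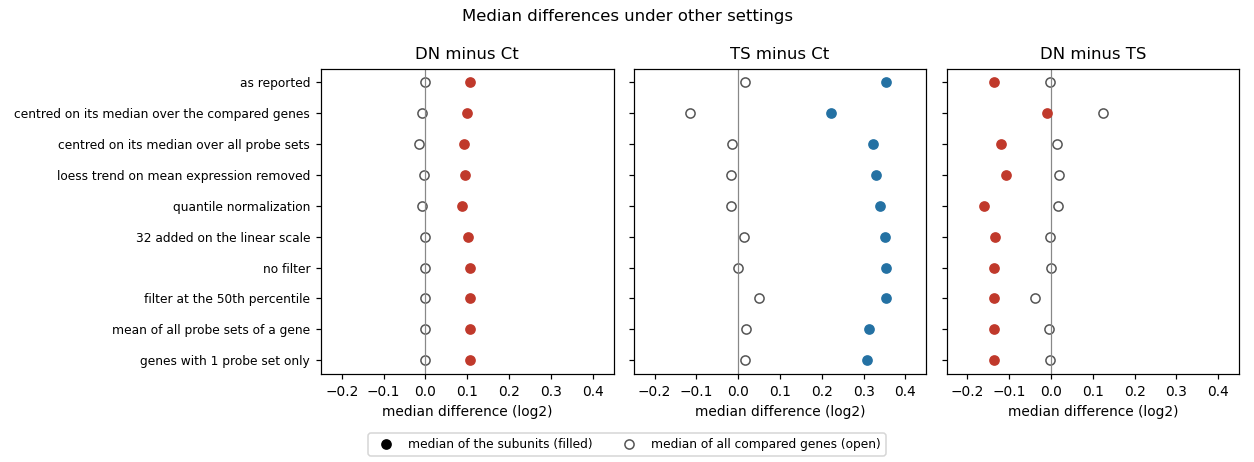
Median difference (horizontal axis, log2) of the measured subunits (filled points) and of all compared genes (open points) under the reported setting and 9 others (rows), with a panel each for DN against Ct, TS against Ct and DN against TS. In TS minus Ct the subunit median runs from 0.22 to 0.35 and lies right of the open point in every row, which centring alone cannot change. In DN minus TS centring on the compared genes brings the subunit median to -0.01.

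The medians were not the same in the parts of the particle, while the ranges of their single subunits overlapped. In DN minus Ct the median was 0.20 for the 6 alpha subunits measured, 0.01 for the 7 beta subunits, 0.18 for the 6 ATPases and 0.11 for the 11 non-ATPase subunits of the 19S particle. In TS minus Ct it was 0.33 for the alpha ring, 0.14 for the beta ring, 0.46 for the ATPases and 0.36 for the non-ATPases. Past the limit in DN were 3 of 13 subunits of the 20S core and 4 of 17 of the 19S particle, and in TS 5 of 13 and 11 of 17. Over the compared genes, 9.71% were higher past it in DN and 17.4% in TS. The beta ring had the lowest median of these 4 groups in both comparisons with Ct, and whether the groups differ was not tested. In DN minus TS the medians were -0.05 for the alpha ring, -0.10 for the beta ring, -0.18 for the ATPases and -0.18 for the non-ATPases. With the arrays centred those of the alpha and beta rings were above 0, at 0.079 and 0.029, against 0.12 over the compared genes.

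**Figure D3:**
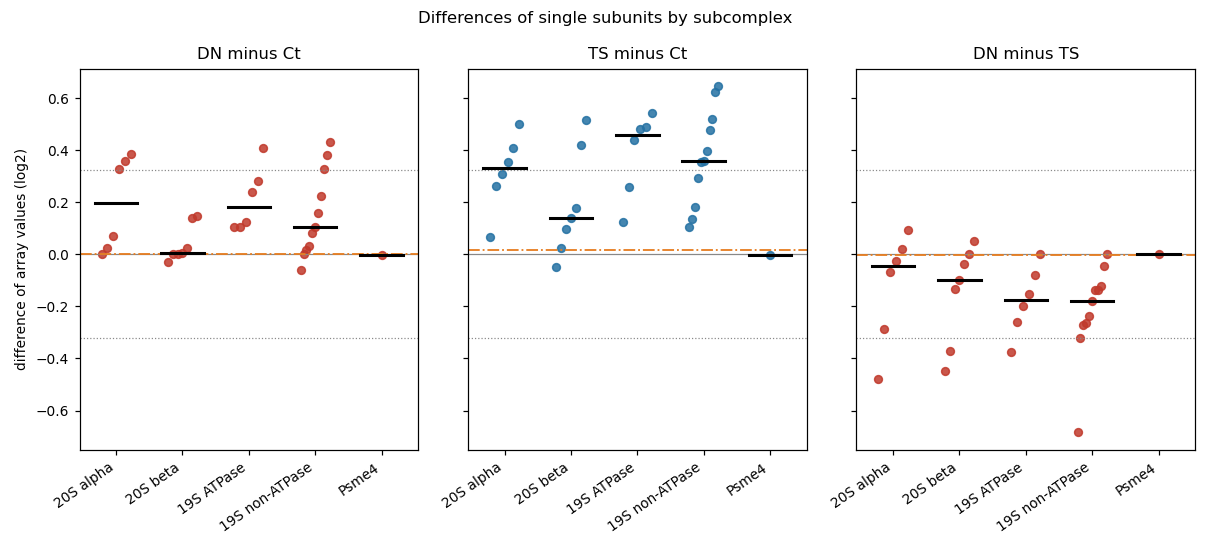
Difference of array values (vertical axis, log2) for each measured subunit (points), grouped by subcomplex (horizontal axis), with a panel each for DN against Ct, TS against Ct and DN against TS; black bars are medians, dotted lines the limit of 0.32 and the dash-dotted line the median of all compared genes. In TS minus Ct 4 of 6 ATPases and 7 of 11 non-ATPases lie above the upper dotted line, against 2 of 7 beta subunits. Of all compared genes, 17.4% were higher past that limit.

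The alpha ring forms the gate of the core and the surface on which regulatory caps dock. Psma1 read 11.46 in DN, 11.37 in TS and 11.11 in Ct. Psma2 read 10.57 in DN, 10.55 in TS and 10.24 in Ct. Psma4 read 11.62 in DN, 11.65 in TS and 11.24 in Ct. These 3 subunits were higher in DN and in TS than in Ct, with DN and TS within 0.10 of each other. In DN they were the only alpha subunits past the limit, at 0.36, 0.33 and 0.38. In TS Psma4 was past it at 0.41, whereas Psma1 (0.26) and Psma2 (0.31) were not.

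A different order of the arrays was seen in the rest of the alpha ring. Psma5 read 9.61 in DN, 10.09 in TS and 9.59 in Ct. Psma7 read 11.09 in DN, 11.37 in TS and 11.02 in Ct. In both, DN lay near Ct and TS alone stood apart, at 0.50 above Ct for Psma5 and 0.36 for Psma7. Psma6 read 10.52 in DN, 10.59 in TS and 10.52 in Ct, equal in DN and Ct and higher by 0.07 in TS, the lowest difference of the ring in both comparisons with Ct. A dimmer further probe set annotated to Psma6 lay under the limit on low values and was not used; it gave -0.29 in DN minus Ct and -0.32 in TS minus Ct, and the mean of both probe sets was -0.13 in TS minus Ct.

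The beta ring holds the proteolytic sites, which belong to Psmb5, Psmb6 and Psmb7, known for chymotrypsin-like, caspase-like and trypsin-like cleavage. Psmb5 read 11.29 in DN, 11.24 in TS and 11.29 in Ct. Psmb6 read 8.86 in DN, 9.31 in TS and 8.89 in Ct. Psmb7 read 11.50 in DN, 11.54 in TS and 11.36 in Ct. The 3 catalytic subunits thus went different ways. Psmb6 was near Ct in DN and higher by 0.42, or 1.34-fold, in TS, while Psmb7 was higher by 0.14 in DN and 0.18 in TS. Psmb5 was equal in DN and Ct and read -0.05 in TS minus Ct, the lowest difference of any subunit in that comparison. A second probe set of Psmb6 gave -0.36 for DN minus Ct, further from 0 than the -0.03 of the brighter one, and 0.24 for TS minus Ct.

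The other beta subunits carry no active site in the mature particle. Psmb3 read 9.59 in DN, 9.96 in TS and 9.45 in Ct. Its difference from Ct was 0.15 in DN and 0.52 in TS, the highest of the ring in both. Psmb1 read 10.70 in DN, 10.70 in TS and 10.67 in Ct. Psmb2 read 10.39 in DN, 10.49 in TS and 10.39 in Ct. Psmb4 read 11.90 in DN, 12.04 in TS and 11.90 in Ct. In these 3 genes no array stood more than 0.14 from another. No beta subunit was past the limit in DN, and Psmb3 and Psmb6 were the 2 that passed it in TS. Of the compared genes, 9.71% were higher past it in DN and 17.4% in TS.

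**Figure D4:**
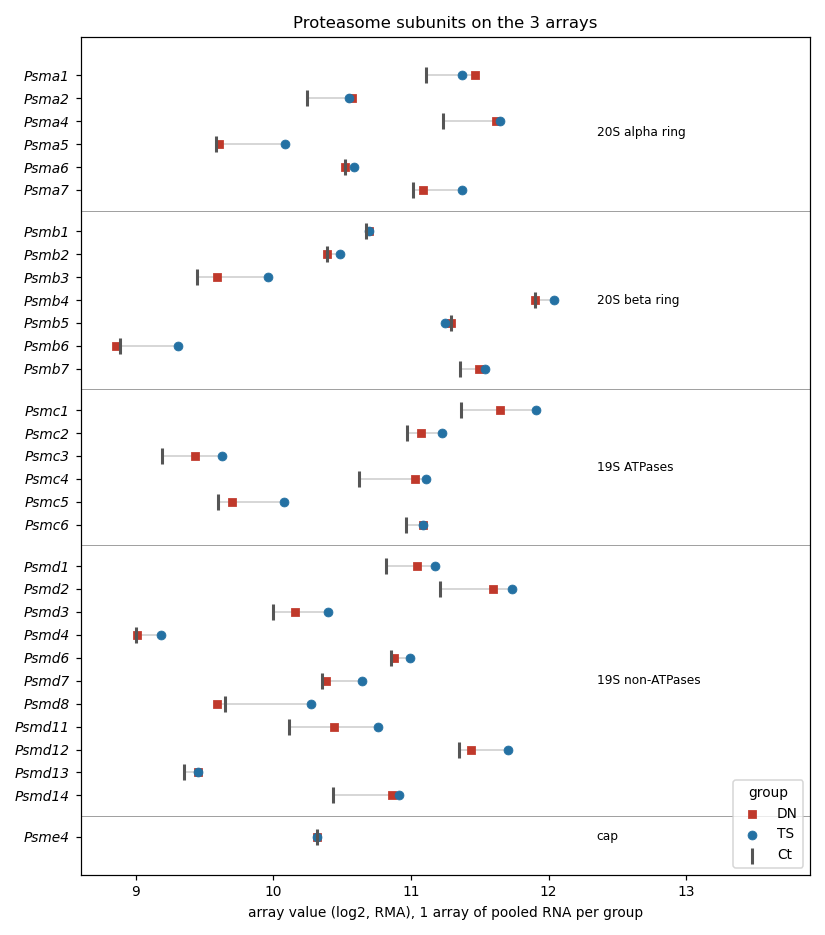
Array value (horizontal axis, log2) of each of the 31 measured subunits (rows, by subcomplex) in DN (squares), TS (circles) and Ct (bars); 1 array per group, so no error is shown, and where arrays were equal the symbols lie on each other. Ct is the lowest array for 25 subunits and TS the highest for 24; positions of different genes cannot be compared, because their probes differ.

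A highest or lowest value shared by arrays was counted for none of them, which lowers the shares of the compared genes given next. Over the whole list TS was the highest array for 24 of 31 subunits, against 40.1% of the compared genes, and Ct the lowest for 25, against 26.2%. The ATPases of the 19S base, which unfold the substrate, followed this order in 5 of 6 genes. Psmc1 read 11.65 in DN, 11.91 in TS and 11.37 in Ct. Psmc3 read 9.43 in DN, 9.63 in TS and 9.19 in Ct. Psmc5 read 9.70 in DN, 10.08 in TS and 9.60 in Ct. In each of these 3 genes DN lay between TS and Ct, and TS was higher than Ct by 0.54, 0.44 and 0.48. Psmc1 had the highest TS difference of the ring, 1.46-fold.

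Psmc4 read 11.03 in DN, 11.11 in TS and 10.62 in Ct. It was the ATPase with the highest difference in DN, 0.41, and stood at 0.49 in TS. Its second probe set gave 0.30 in both comparisons, with equal values in DN and TS. Psmc2 read 11.08 in DN, 11.23 in TS and 10.97 in Ct. Psmc6 read 11.09 in DN, 11.09 in TS and 10.97 in Ct. Psmc6, equal in DN and TS at 0.12 above Ct, had the lowest TS difference of the ATPases and read -0.01 against Ct once the arrays were centred, while Psmc2 stood at 0.11 in DN and 0.26 in TS.

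The base of the 19S particle also holds the scaffold subunits Psmd1 and Psmd2 and the ubiquitin receptor Psmd4. Psmd1 read 11.04 in DN, 11.18 in TS and 10.82 in Ct. Psmd2 read 11.59 in DN, 11.73 in TS and 11.21 in Ct. Both scaffolds ranked the arrays alike, with DN below TS and above Ct. Psmd2 was past the limit in DN (0.38) and in TS (0.52), and Psmd1 in TS (0.36) but not in DN (0.22). Psmd4 read 9.01 in DN, 9.19 in TS and 9.01 in Ct. The receptor had nearly the same value in DN and Ct and stood at 0.18 in TS minus Ct.

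The lid carries the deubiquitinase Psmd14, which cuts ubiquitin chains off the substrate, and its partner Psmd7, on a scaffold of further subunits. Psmd14 read 10.87 in DN, 10.91 in TS and 10.43 in Ct. Psmd7 read 10.38 in DN, 10.65 in TS and 10.35 in Ct. The pair differed in DN, where Psmd14 had the highest difference of all subunits, 0.43 or 1.35-fold, and Psmd7 stood at 0.03. In TS they stood at 0.48 and 0.29.

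Psmd11 clamps the lid to the alpha ring and the ATPases. Psmd11 read 10.44 in DN, 10.76 in TS and 10.11 in Ct. Its DN difference was 0.33, and its TS difference of 0.65, or 1.57-fold, was the highest of all subunits. Psmd8, a lid subunit that joins late in its assembly, read 9.59 in DN, 10.28 in TS and 9.65 in Ct. Its DN difference of -0.06 was the lowest of the list, but its TS difference was nearly that of Psmd11, at 0.62 or 1.54-fold, so that DN minus TS was -0.68. A second probe set of Psmd8, at the limit on low values, gave -0.24 in DN and 0 in TS.

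The remaining lid subunits are scaffold proteins. Psmd3 read 10.16 in DN, 10.40 in TS and 10.00 in Ct. Psmd12 read 11.43 in DN, 11.71 in TS and 11.35 in Ct. Both were short of the limit in DN, at 0.16 and 0.08, and past it in TS, at 0.40 and 0.35. Psmd6 read 10.87 in DN, 10.99 in TS and 10.86 in Ct. Psmd13 read 9.46 in DN, 9.46 in TS and 9.35 in Ct. These stood lowest in the lid in TS, at 0.14 and 0.11, and Psmd13 was equal in DN and TS. Psme4, a cap that docks on the core in place of the 19S particle without using ATP, read 10.32 in DN, 10.32 in TS and 10.32 in Ct. It stood at -0.0018 in both comparisons with Ct, while no 19S subunit stood below 0.10 in TS.

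The genes past the limit in DN minus TS came from both rings of the core and from the 19S particle. Psmd8 (-0.68), Psma5 (-0.48), Psmb6 (-0.45), Psmc5 (-0.38) and Psmb3 (-0.37) were the 5 that were lower in DN. At the other end Psma1 (0.09), Psmb5 (0.05) and Psma2 (0.02) were the 3 that were higher in DN, none of them past the limit.

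Promoter sequences of 28 of the 32 listed subunits were found in the RefSeq table of build GRCr8, each running from 250 bases before to 50 bases after the annotated start. They were searched on both strands for TGACNNNGC, the antioxidant response element bound by Nfe2l1 and Nfe2l2 with small Maf partners, for the looser TGANNNNGC, which includes every match of the first, and for CCAAT, the box bound by NF-Y. TGACNNNGC was present in 7 of 28 subunit promoters (25%) and in 12.1% of all 33469 promoters of the table. TGANNNNGC was present in 17 of 28 (60.7%) and in 40.5% of all, and CCAAT in 14 of 28 (50%) and in 37.5% of all. By subcomplex, TGANNNNGC was present in all 7 promoters of the beta ring, in 6 of 8 of the non-ATPases, in 2 of 6 of the alpha ring and in 1 of 6 of the ATPases. A match is a run of letters and not a shown binding site, and these promoters were not assayed here.

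The 7 promoters with TGACNNNGC were those of Psmb2, Psmb5, Psmb6, Psmd1, Psmd3, Psme4 and Psma3, the last of which was not measured. The match, read on the gene's strand, was TGACCGGGC in Psmb2, TGACGTCGC in Psmb5, TGACGGAGC in Psmb6, GCTCGGTCA in Psmd3 and GCTGGGTCA in Psme4. In TS minus Ct these 5 genes stood at 0.10, -0.05, 0.42, 0.40 and -0.0018, against a median of 0.35 over all subunits. Psmd1, with 2 matches, stood at 0.36. Psmb6, Psmd3 and Psmd1 thus lay above that median, and Psmb2, Psmb5 and Psme4 below it. The 6 ATPase promoters held no match. Whether a match goes with the difference of a gene was not tested.

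Promoters of 4 genes are shown 5' to 3' on the gene's strand, with matches to TGACNNNGC in capitals: Psmb5 and Psmb6, catalytic subunits with a match each that differ in TS, Psmd1, which has 2 matches, and Psmd11, which has no match and the highest TS difference. They lie on GRCr8 at chr15:32047330-32047629 on the minus strand for Psmb5, chr10:55737638-55737937 on the plus strand for Psmb6, chr9:94157721-94158020 on the plus strand for Psmd1 and chr10:65932093-65932392 on the plus strand for Psmd11.
Psmb5: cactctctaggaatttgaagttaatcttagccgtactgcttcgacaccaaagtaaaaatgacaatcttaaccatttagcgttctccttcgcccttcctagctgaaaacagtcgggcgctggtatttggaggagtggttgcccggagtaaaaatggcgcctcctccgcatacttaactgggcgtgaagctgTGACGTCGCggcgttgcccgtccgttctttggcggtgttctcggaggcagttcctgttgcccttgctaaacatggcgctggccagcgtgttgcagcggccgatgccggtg
Psmb6: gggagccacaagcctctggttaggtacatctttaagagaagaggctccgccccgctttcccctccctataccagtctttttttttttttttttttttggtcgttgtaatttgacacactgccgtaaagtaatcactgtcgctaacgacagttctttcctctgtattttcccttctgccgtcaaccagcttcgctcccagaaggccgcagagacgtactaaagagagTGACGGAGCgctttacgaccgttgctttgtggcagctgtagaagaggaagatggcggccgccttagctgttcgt
Psmd1: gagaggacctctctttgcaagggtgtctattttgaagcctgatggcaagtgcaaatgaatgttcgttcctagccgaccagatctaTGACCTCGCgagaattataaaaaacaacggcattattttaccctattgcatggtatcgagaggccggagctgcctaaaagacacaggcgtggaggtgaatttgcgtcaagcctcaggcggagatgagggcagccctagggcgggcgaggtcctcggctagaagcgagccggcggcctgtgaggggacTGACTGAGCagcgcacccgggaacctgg
Psmd11: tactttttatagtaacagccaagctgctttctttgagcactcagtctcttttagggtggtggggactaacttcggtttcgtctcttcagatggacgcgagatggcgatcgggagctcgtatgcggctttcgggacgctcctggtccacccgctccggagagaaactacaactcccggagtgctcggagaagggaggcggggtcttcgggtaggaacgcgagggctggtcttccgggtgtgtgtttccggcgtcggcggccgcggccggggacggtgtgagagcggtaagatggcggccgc
In these windows the match begins 60 bases before the start in Psmb5 and 24 bases before it in Psmb6, and in Psmd1 the matches begin 165 bases before it and 23 bases after it.

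Of 52 further genes of the pathway, 41 were found and 40 passed the limit on low values. Of these 40, 2 were higher past the limit in DN and none was lower, where 9.71% and 9.57% of the compared genes were, and in TS 9 were higher and 1 was lower, where 17.4% and 6.62% were. The share of 9 in 40 is near that of all genes, and that of 2 in 40 lies below it. Their median was 0.02 in DN minus Ct and 0.09 in TS minus Ct, against 0.11 and 0.35 for the subunits.

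The transcription factor Nfe2l1 was the gene of these lists furthest above Ct in DN. Nfe2l1 read 11.65 in DN, 11.14 in TS and 10.85 in Ct, so that it was higher by 0.79 (1.73-fold) in DN and by 0.29 in TS. The median subunit difference from Ct was 0.11 in DN and 0.35 in TS. With the arrays centred on the compared genes, the subunit median of DN minus TS was -0.0105. Whether the subunit values follow Nfe2l1 was not tested. Ddi2, the protease that cuts Nfe2l1 into its active form, read 9.25 in DN, 9.25 in TS and 8.95 in Ct, 0.30 above Ct in both. Ngly1, which strips sugars from Nfe2l1 for its activation, read 10.29 on all 3 arrays. Nfe2l2 stood at 0.00 in DN and -0.09 in TS. Keap1, which marks Nfe2l2 for degradation, stood at -0.29 and 0.39, and the small Maf partner Mafg at -0.07 and 0.50.

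The assembly chaperones had a median of 0.00 in DN and 0.20 in TS. Of the 7 measured, none was past the limit in DN and 3 were higher past it in TS, where 9.71% and 17.4% of the compared genes were higher. Pomp, which assembles the core, read 8.69 in DN, 9.14 in TS and 8.69 in Ct. Psmd5 and Psmd9, which help to assemble the ATPase ring, stood at 0.21 and -0.03 in DN and at 0.41 and 0.42 in TS. These 3 chaperones thus had TS as the highest array.

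Proteins that bind the particle were mixed. Adrm1, a ubiquitin receptor of the 19S base that was not on the subunit list, read 9.55 in DN, 10.06 in TS and 9.39 in Ct, and its TS difference of 0.67 (1.6-fold) was above that of every listed subunit. The deubiquitinases Uchl5, which Adrm1 recruits, and Usp14 stood at 0.08 and 0.03 in DN and at 0.03 and -0.03 in TS, and Sem1, a small lid protein, stood at -0.02 in DN and -0.14 in TS. The median of the 6 measured genes was 0.03 in DN and -0.0021 in TS.

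The interferon-inducible forms of the particle stayed nearer to Ct. Of Psmb8, Psmb9, Psmb10, Psme1 and Psme2, Psmb10 was the only one past the limit, reading 7.38 in DN, 7.90 in TS and 7.40 in Ct, or 0.49 in TS minus Ct. In TS 17.4% of the compared genes were higher past the limit. The median of the 5 was 0.05 in DN and 0.09 in TS, against 0.11 and 0.35 for the subunits. Psmb8, which replaces Psmb5 in that form of the core, read 8.27 on all 3 arrays. Psme3, a nuclear activator, read 9.91 on all 3 arrays, and Psmb11, which is restricted to the thymus, lay under the limit on low values on every array, at 5.24.

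Upstream of the particle, the segregase complex that extracts tagged proteins had a median of 0.21 in both comparisons with Ct. Its cofactor Ufd1 read 10.22 in DN, 10.07 in TS and 9.77 in Ct, past the limit in DN, and the ATPase Vcp stood at 0.29 in DN and 0.05 in TS. Shuttle factors, which carry ubiquitylated proteins to the particle, had medians of 0.00 and 0.05. Ubqln4 read 9.42 in DN, 8.80 in TS and 9.42 in Ct, which is -0.63 in TS minus Ct, the only shuttle factor past the limit, and Ddi2 of the same list stood at 0.30 in both as given above. The ubiquitin-activating enzymes Uba1 and Uba6 stood at 0.00 and 0.01 in DN and at 0.09 and 0.00 in TS. The muscle ubiquitin ligases Fbxo32 and Trim63 stood at 0.13 and 0.31 in DN and at 0.65 and 0.55 in TS, again with TS as the higher of the pools.

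**Figure D5:**
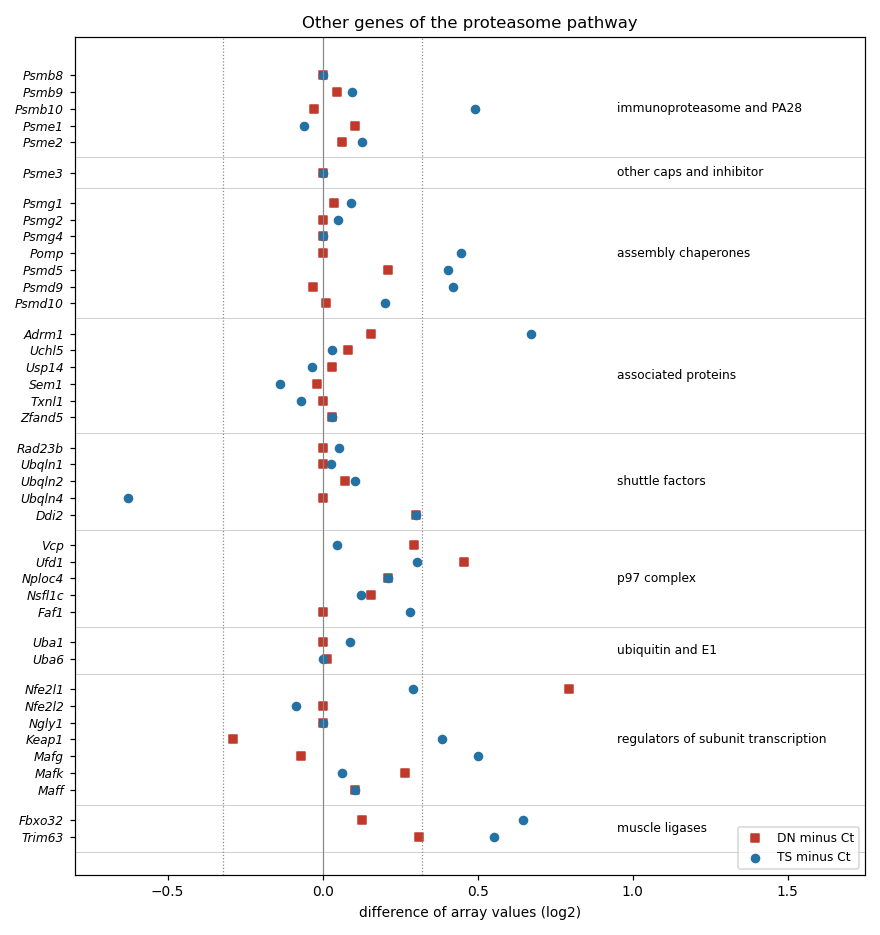
Difference of array values (horizontal axis, log2) of the 40 measured other genes of the pathway (rows, by list) in DN minus Ct (squares) and TS minus Ct (circles); dotted lines mark the limit of 0.32, and equal differences lie on each other. Nfe2l1 lies furthest right in DN at 0.79 and Adrm1 in TS at 0.67, while Ubqln4 lies furthest left in TS at -0.63.

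Markers of the tissue and of other cell types were read against the shares of all compared genes past the limit, 9.71% higher and 9.57% lower in DN and 17.4% higher and 6.62% lower in TS; in lists this short, 1 gene past the limit is near those shares. All 10 genes of the slow-muscle list were measured, with 5 lower past the limit in DN and 4 in TS. Ckm, Acta1 and Mb of that list are not restricted to slow fibres. Ckm (-1.12) was among those lower in DN and Mb (-0.34) among those lower in TS. Of 9 macrophage markers, 2 were higher past it in DN and 8 in TS, and their mean value was 9.17 in DN, 9.61 in TS and 8.996 in Ct. Adipocyte markers were higher for 3 of 4 genes in both, with means of 7.87 in DN, 7.72 in TS and 6.83 in Ct. Endothelial markers were lower for 2 of 6 in DN and 1 of 6 in TS, 1 of 5 fibroblast markers was higher in both, none of 4 Schwann cell markers passed the limit, and both erythroid markers were lower in DN and higher in TS. Satellite cell markers had 1 of 2 higher in DN, and 1 higher and 1 lower in TS. Of 8 lymphocyte markers found, 3 passed the limit on low values, of which 1 was higher in TS, and none of 3 neutrophil markers passed it. The part of these cells in the subunit values was not tested.

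Probe sets of subunits may not be specific, since the GRCr8 table lists 39 genes named as pseudogenes or like copies of 15 of the 32 subunits. Whether the probes also detect those copies was not tested. A gauge of the error between probe sets comes from 401 genes that had another probe set past the limit on low values. Both were read on the same arrays, so the gauge holds no spread between rats, pools or arrays. Where both probe sets have equal values on the arrays compared their disagreement is 0, which can lower its median. The median disagreement between both probe sets was 0.03 in DN minus Ct, 0.11 in TS minus Ct and 0.09 in DN minus TS, and its 95th percentile was 0.33, 0.73 and 0.76. The highest single subunit difference was 0.43 in DN minus Ct and 0.65 in TS minus Ct, and the one furthest from 0 in DN minus TS was -0.68.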

How the data were processed

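Soleus RNA pooled from 6 rats per group was measured on 3 arrays, 1 per group, each placed by its label; the series text speaks of 2 arrays. The deposited values are log2 values made by the authors with RMA in Affymetrix Expression Console (background correction, normalization and summary of probes) in a core-exon analysis, per the labels' protocols and the submitters' notes. Not given in the sources used here were the base of the logarithm, the software version and the build; base 2 was assumed from values between 1.77 and 13.99.

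Of 29170 probe sets, 15310 carried 1 symbol in the platform annotation, 323 several and 13537 none; 15279 of the first were matched to RefSeq (GRCr8) by gene identifier, and no symbol changed. The brightest probe set stood for a gene. Genes under the 30th percentile of gene means (5.72) were left out. Differences were taken between arrays with no test, since each group has 1 array. The members, lists and limits were chosen with earlier results of these data known. Every measured subunit is given with its 3 values; of other lists, at most the 3 largest differences per comparison were to be named, with further members added after their values were seen. The procedure was checked on arrays with known shifts. Alternatives are given with their effect in the closing section. Python 3.11.15, numpy 2.4.6, pandas 2.3.3, statsmodels 0.14.6 and matplotlib 3.10.9 were used.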

Additional observations from a re-analysis of the deposited data

How the results depend on the processing

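A value was taken to have moved where it differed from the reported one by more than the median disagreement between probe sets, and a count where it differed by more than 1.5 times. A change of sign was counted apart only where the reported value was further from 0 than that disagreement. Of the alternative medians and counts, 211 did not move, 22 moved and 1 changed sign in this sense. The last was the beta ring median in DN minus TS, at -0.0968 as reported and 0.029 with the arrays centred on the compared genes. Smaller medians also crossed 0 with the arrays centred on the compared genes. That of the alpha ring in DN minus TS went from -0.0465 to 0.079, and that of the beta ring in DN minus Ct from 0.0053 to -0.00198. Centring each array on its median over the compared genes moved more of the medians and counts than any other setting. For TS minus Ct it gave medians of 0.22 for all subunits, 0.20 for the alpha ring, 0.0054 for the beta ring, 0.33 for the ATPases and 0.23 for the non-ATPases, with 9 subunits higher past the limit. For DN minus TS it gave -0.0105 for all subunits, 0.079, 0.029, -0.049 and -0.055 for those 4 groups, and 2 subunits lower past the limit. The median over all compared genes was -0.12 and 0.12 in these 2 comparisons. Centring cannot change the side of that median on which a group lies. Centring changed the sign of 2 single subunits in DN minus Ct, 5 in TS minus Ct and 7 in DN minus TS. Of these, Psmc6 in TS minus Ct (-0.0091) and Psmb2 (0.029) and Psmd6 (0.0055) in DN minus TS had a reported difference larger than the median disagreement between probe sets. That setting subtracts the same amount from each gene of an array. At a 1.5-fold limit the counts were 0 higher in DN, 2 higher in TS and 1 lower in DN than in TS. Of the 10154 compared genes 501, 598 and 602 were. At the reported limit, the count lower in DN than in TS, 5, became 3 with the trend removed and 3 with genes of 1 probe set only. In DN minus Ct, means in place of medians gave 0.14 for all subunits, 0.041 for the beta ring and 0.15 for the non-ATPases. Genes with 1 probe set only gave 0.33 for the alpha ring and 0.12 for the ATPases, and leaving out equal values gave 0.33 for the alpha ring. The cause of these shifts was not tested. Centring over all probe sets, quantile normalization, 32 added on the linear scale, both other filters, averaging each gene's probe sets and leaving out Psme4 moved none of the medians or counts. With 1 array of pooled RNA per group, the spread between rats was not measured, and no paired analysis was possible because no group has a replicate.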
